A study of Homo sapiens with 8 samples.

Results

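Of the sites where p53 ChIP-seq peaks were listed in 293T cells, 593 were listed in each library of vehicle-treated cells and in no library of doxorubicin-treated cells. They are called PBS-pair sites here. The 4 deposited peak lists were joined, peaks that shared at least 1 bp were merged into sites, and the sites were chosen by the presence or absence of a listed peak in each library. The PBS-pair sites made up 0.928% of 63890 sites (95% Wilson interval 0.857 to 1.01 per cent). That share follows from the choice and is not a result. Of the 6257 sites with a peak in both PBS libraries, 9.48% (8.78 to 10.2) were PBS-pair sites, 22.1% also had a peak in Dox replicate 1 alone, 7.02% in Dox replicate 2 alone and 61.4% in both Dox libraries. Wilson intervals throughout cover counting error only and treat sites as independent.

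The cells are 293T, an established line from human embryonic kidney into which the large T antigen of a simian virus was introduced; peak lists hold no expression values against which that label could be checked. Cells in the Dox group received doxorubicin at 0.5 µg/ml and cells in the PBS group 20 µl of phosphate-buffered saline as vehicle, both for 24 h. Chromatin was precipitated with a p53 antibody in 2 libraries per group, from passage 3 for replicate 1 and passage 5 for replicate 2, so replicate and passage cannot be told apart. Nothing in the sources used here says that the libraries of a group came from separate cultures beyond the passage number. The lists differ in length: Dox replicate 1 has 46658 peaks and Dox replicate 2 has 16642, while PBS replicate 1 has 11304 and PBS replicate 2 has 22978. Read depth is not given in these lists, and the 4 input samples were not analysed here.

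p53 is a tumour suppressor and a transcription factor that binds DNA as a tetramer at response elements. In undamaged cells its level is kept low by the ubiquitin ligase MDM2, itself a p53 target. DNA breaks such as those left by doxorubicin, a topoisomerase poison, stabilise p53. Large T antigen binds p53 in 293T cells and stabilises it too, so p53 protein is present there without damage. A missing peak means only that none was listed at the loose threshold of these lists (p under 0.05). The read signal of the Dox libraries at these positions was not analysed here. Sites are given on build hg19. No genome or annotation of that build was used here, so no sequence is printed and no gene is named.

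The PBS-pair sites ranked low by p in the list of PBS replicate 1 and near the middle of that of PBS replicate 2. The fold enrichment of the strongest peak in each site, the authors' own ratio over local background, ran from 1.84 to 5.16 in PBS replicate 1 with a median of 2.51. In PBS replicate 2 it ran from 1.58 to 5.09 with a median of 2.82. The same peaks had a median −log10 p of 1.82 in PBS replicate 1 and 2.78 in PBS replicate 2, which is at percentile 33.5 and 52.0 of the lists by p. Sites held by all 4 libraries stood at percentile 70.8 and 83.7 of the same lists, with median folds of 3.00 and 3.51. Sites with both PBS libraries and 1 Dox library lay between: their median percentiles were 49.5 and 57.5 with Dox replicate 1, and 50.2 and 64.1 with Dox replicate 2. The order by number of Dox libraries was thus the same in both PBS lists. The number of lists that hold a site was the basis of the choice, so these values are a description and were not tested.

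Of the PBS-pair sites, 374 (63.1%) had a −log10 p below 2 in at least 1 PBS library, 219 reached 2 in both and 31 reached 3 in both. Among sites of both PBS libraries and Dox replicate 1 alone, 708 of 1385 were below 2 in at least 1 PBS library. The counts were 209 of 439 with Dox replicate 2 alone and 1029 of 3840 at sites of all 4 libraries. In the same order, 134, 37 and 1319 reached 3 in both. In 202 (34.1%) of the PBS-pair sites both peaks were in the lower 50 per cent of their own list, and in 6 both were in the top 10 per cent. Counts by position in the lists were not computed for other sets. The p-values of both lists moved together only weakly over the 593 sites, with a Pearson r of 0.29 and a Spearman rho of 0.21. Over the 3840 sites of all 4 libraries rho was 0.47. These correlations run across sites of the same libraries and are a description. In the plot of p-values the PBS-pair sites fill the lower left corner among the other sites of both PBS libraries.

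**Figure D1:**
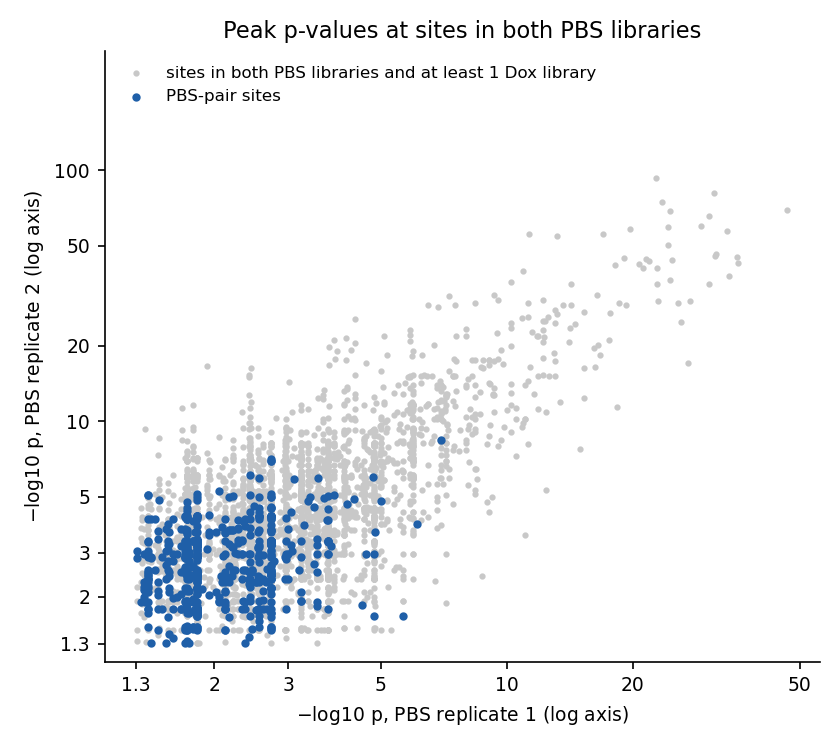
The −log10 p of the strongest peak in PBS replicate 1 (horizontal, log axis) and PBS replicate 2 (vertical, log axis) at the 6257 sites with a peak in both PBS libraries, 1 point per site. The 593 PBS-pair sites (blue) lie between 1.31 and 6.95 in PBS replicate 1 and between 1.31 and 8.45 in PBS replicate 2, while sites with at least 1 Dox library (grey) reach 46.7 and 93.4.

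After correction for multiple testing few of these peaks passed. The q-value reached 0.05 or less in each PBS library at 1 PBS-pair site, against 4.09% of all sites with both PBS libraries. It was at most 0.05 in either PBS library at 10, against 17.7%. A −log10 q of 0, which means q of 1, was listed for 582 sites in PBS replicate 1 and for 479 in PBS replicate 2. The authors' table of matched PBS peak pairs gives an irreproducible discovery rate (IDR), the expected share of pairs at or above that rank that are not reproducible. A pair was listed for 588 of the PBS-pair sites, with a median IDR of 0.41, and 63 had an IDR of at most 0.05, against 15.2% of the sites of both PBS libraries with a listed pair. The median IDR was 0.28 at sites of all 4 libraries. Strength in the PBS lists goes with the number of Dox libraries that hold a site, so none of these counts was read as a result about vehicle-treated cells.

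The strongest PBS-pair site, at chr1:144491007-144491605, was also the one that passed q in each PBS library. Its fold was 5.16 in PBS replicate 1 and 4.59 in PBS replicate 2, at −log10 p of 6.95 and 8.45, and its IDR was 0.0013. Both summits lay 19 bp apart, and the nearest Dox peaks were 28132 bp (replicate 1) and 28179 bp (replicate 2) away. It ranked 223 in the list of PBS replicate 1 and 430 in that of PBS replicate 2.

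The next sites by the smaller of both −log10 p values were spread over other chromosomes. At chr2:27886262-27886754 the folds were 4.04 and 3.78 in PBS replicates 1 and 2, with summits 4 bp apart and no Dox peak within 19822 bp. At chr8:86563384-86563695 they were 3.37 and 2.92, and a second PBS-pair site, with folds of 2.04 and 2.60, lay 2320 bp to its left. At chr10:5855155-5855420 the folds were 3.94 and 3.95, and a Dox replicate 1 peak lay 490 bp away. The closeness of Dox peaks thus ranged widely even among the leading sites. At chr22:36236492-36236798 the folds were 3.40 and 2.94, with the nearest Dox peak 61589 bp away.

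The other sites among the leading 10 were chr2:90371647-90371956, chr19:4247473-4247769, chr2:60780624-60780827, chr12:75273673-75273954 and chr17:15466494-15466857. Their folds ran from 3.38 to 3.86 in PBS replicate 1 and from 1.99 to 4.13 in PBS replicate 2. The first of these differed most between the libraries, with 3.53-fold in PBS replicate 1 and 1.99-fold in PBS replicate 2. It was also the only site with q of at most 0.05 in PBS replicate 1 and not in PBS replicate 2, at a −log10 q of 1.40. The site on chromosome 12 stood far from any Dox peak, 454241 bp from replicate 1 and 1204190 bp from replicate 2.

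Peaks passing q in PBS replicate 2 alone had a higher fold there than in PBS replicate 1 at 7 of the 8 sites. Picking sites by q in that library favours a higher fold there, so the count is a description. Over all PBS-pair sites the median fold was also higher in PBS replicate 2, 2.82 against 2.51. At chr3:37896861-37897327 the fold was 5.09 in PBS replicate 2 and 2.88 in PBS replicate 1. At chr17:4435341-4435811 and chr20:32900481-32900794 it was 5.02 in PBS replicate 2 at both, against 3.25 and 2.88. A pair of them, chr20:42092346-42093399 and chr20:42094528-42095098, lay 1128 bp apart, with 4.94-fold and 4.65-fold in PBS replicate 2 and 2.55-fold and 3.22-fold in PBS replicate 1. The others were chr1:28156808-28157579, chr1:36614982-36615462 and chr8:86563384-86563695, the last with the higher fold in PBS replicate 1.

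PBS-pair sites were narrow. Their width ran from 204 to 1248 bp with a median of 385 bp and quartiles of 310 and 492 bp, and 9 of them were 1000 bp or wider. The median was 440 bp for the 1986 sites of both Dox libraries only, 822 bp for sites of all 4 libraries and 286 bp for all sites, most of which hold 1 peak. A site of more libraries joins more peaks, so width and the number of libraries are bound by the merging. The PBS replicate 1 peak on its own had a median width of 257 bp in PBS-pair sites and 359 bp in sites of all 4 libraries. In PBS replicate 2 the medians were 286 and 444.5 bp. A wider peak has more room to overlap a Dox peak, so these widths too are bound to the choice of the sites and are a description.

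Nearly all PBS-pair sites were built from 1 peak per library: 582 held 2 peaks and 11 held 3. The widest, at chr5:40828475-40829722, held 2 peaks of PBS replicate 1 and 1 of PBS replicate 2, with folds of 2.70 and 3.33 for the strongest. The narrowest, at chr2:60780624-60780827, was one of the leading 10, with 3.38-fold and 3.56-fold enrichment and summits 10 bp apart. Width and strength thus did not run in parallel at these extremes. Together the sites covered 250430 bp, 1.04% of the length of all sites.

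The choice required the peaks of both PBS libraries to overlap within a PBS-pair site, so their overlap is a description. It had a median of 195 bp, in the median 88.6% of the narrower peak, and was at least 50 per cent of it in 504 sites (85.0%). The median overlap was 204 bp at sites with both PBS libraries and Dox replicate 1 alone, and 212 bp with Dox replicate 2 alone. At sites of all 4 libraries it was 287 bp. One peak lay wholly inside the other in 184 PBS-pair sites (31.0%). The PBS replicate 2 peak was the wider one in 355 sites and the PBS replicate 1 peak in 236. By median width it was also the wider one in the other sets with both PBS libraries. The medians were 308 against 282 bp with Dox replicate 1 alone and 341 against 286 bp with Dox replicate 2 alone. At sites of all 4 libraries they were 444.5 against 359 bp. Counts of nesting, of overlap by 50 per cent and of the wider peak were not computed for other sets. At the limit of the rule, the smallest overlaps were 3 bp at chr7:25159644-25160310, 4 bp at chr6:155495618-155496035 and 7 bp at chr1:109967177-109967707. Just outside it, the closest PBS peaks of different libraries that missed each other, with no Dox peak in either, were 2 bp apart at chrX:988301-988906, 3 bp apart at chr16:2300730-2301203 and 4 bp apart at chr2:73459728-73460121. There were 33 such neighbouring pairs within 100 bp and 126 within 500 bp.

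The choice required both PBS peaks to overlap, which bounds the distance between their summits, the positions of highest pileup. Whether the summits lay closer than overlap alone would give was not tested. The distance between the PBS replicate 1 and PBS replicate 2 summits had a median of 78 bp with quartiles of 35 and 163 bp. It was at most 50 bp in 35.4% (31.7 to 39.3) of the PBS-pair sites, at most 100 bp in 58.0% (54.0 to 61.9) and at most 200 bp in 83.8% (80.6 to 86.6). Each summit lay inside the other library's peak in 385 sites (64.9%), and in 80 neither did. The shift had no side: the PBS replicate 1 summit was to the left in 288 sites, to the right in 303 and on the same base in 2, with a median shift of 4 bp.

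Summits were on the same base at 2 sites. At chr4:9232104-9232308 the folds were 3.62 and 2.74, and at chrX:152726369-152726579 they were 2.27 and 3.21. The next smallest distance was 1 bp, at chr5:66541795-66542096. The largest was 602 bp at chr14:70240431-70241280, where PBS replicate 1 had 2 peaks and the nearest pair of summits was 85 bp apart. Distances of 583 bp at chr5:177640240-177641023 and 519 bp at chr5:176433422-176434077 came from 1 peak per library and were thus not set by a second peak. A Dox replicate 1 peak lay 116 bp and a Dox replicate 2 peak 186 bp from the former.

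Within 25 bp, summit agreement was lower in PBS-pair sites, 18.4% (15.5 to 21.7), than in sites of all 4 libraries, 23.4% (22.0 to 24.7). It was close in both sets within 100 bp and higher in PBS-pair sites at longer distances. The median distance was 78 bp in both sets, and 57.2% (55.6 to 58.7) of the sites of all 4 libraries had summits within 100 bp. Within 200 bp the share was 74.8% (73.4 to 76.1) there against 83.8% in PBS-pair sites, and within 300 bp it was 82.9% (81.6 to 84.0) against 93.9% (91.7 to 95.6). The share within 100 bp was higher for stronger peaks in both sets. Among PBS-pair sites that share was 50.5% (45.5 to 55.6) where the smaller −log10 p of both peaks was below 2, 69.7% (62.8 to 75.8) from 2 to 3, and 77.4% (60.2 to 88.6) from 3, on 31 sites. For sites of all 4 libraries the shares were 44.9% (41.9 to 48.0), 52.9% (50.3 to 55.4) and 71.6% (69.1 to 73.9) in the same bins. PBS-pair sites were narrower in every bin, with median widths of 370.5 to 403 bp against 787 to 867 bp, and a narrow site bounds the distance its summits can have. Sites with both PBS libraries and 1 Dox library had summits within 100 bp in 54.1% (Dox replicate 1) and 54.2% (Dox replicate 2). The part of width in these shares was not tested.

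**Figure D2:**
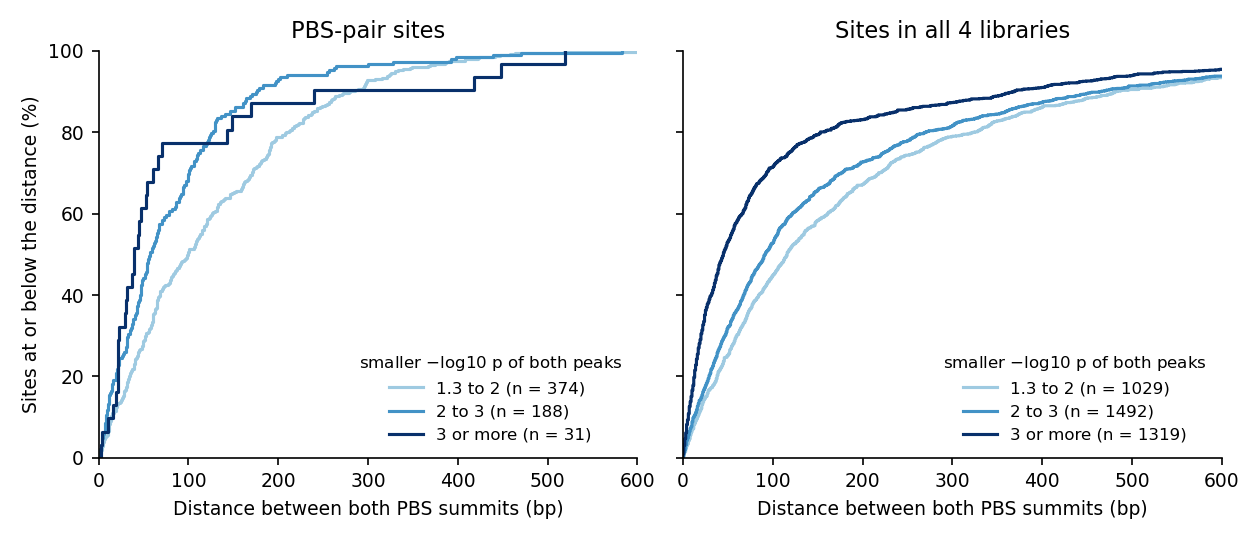
Cumulative share of sites (vertical, per cent) by the distance between the PBS replicate 1 and PBS replicate 2 summits (horizontal, bp), for PBS-pair sites (left) and sites of all 4 libraries (right), 1 line per bin of the smaller −log10 p. At 100 bp the lines of PBS-pair sites stand at 50.5%, 69.7% and 77.4%, and those of sites of all 4 libraries at 44.9%, 52.9% and 71.6%.

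How near a Dox peak lay to the PBS-pair sites varied widely and depended on the lists. The nearest Dox replicate 1 peak was at a median of 4390 bp, with quartiles of 639 and 24813 bp, and the nearest Dox replicate 2 peak at 14796 bp, with quartiles of 1548 and 58325 bp. A peak of either Dox library lay within 200 bp of 75 sites (12.6%), within 1000 bp of 234 (39.5%, 35.6 to 43.5) and within 10000 bp of 409 (69.0%). Peaks of both Dox libraries lay within 1000 bp of 82 (13.8%). A Dox replicate 2 peak lay within 1000 bp of 126 (21.2%). In other sets of sites the share within 1000 bp was 22.3% without Dox replicate 1 (2009 sites) and 22.6% with equally long lists (792 sites). The list of Dox replicate 1 is the longest, and 428 of the PBS-pair sites were nearer to one of its peaks than to one of Dox replicate 2. For the sites of both Dox libraries only, 24.3% had a PBS peak within 1000 bp, in PBS lists that hold fewer peaks, so the shares are not compared. The share over all sites was not computed, so nearness to a Dox peak is not shown to be particular to the PBS-pair sites.

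The 3 PBS-pair sites nearest to a Dox peak were a few bases from it. At chr1:52869860-52870327 a Dox replicate 2 peak was 4 bp away, at chr19:71019-71394 one was 7 bp away, and at chr15:85113331-85113631 a Dox replicate 1 peak was 9 bp away. Their folds were 1.95 and 2.26, 3.38 and 3.28, and 2.14 and 2.58 in PBS replicates 1 and 2. The middle one thus had a fold above the median of the set in both libraries. Among the 234 sites with a Dox peak within 1000 bp, the nearest Dox peak belonged to a site without a PBS peak in 112, to a site with 1 PBS library in 66, to a site of all 4 libraries in 36 and to a site with both PBS libraries and 1 Dox library in 20. The share of each kind among all sites with a Dox peak was not computed. These counts thus do not show that any kind was more frequent here than elsewhere.

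Sites near to and far from Dox peaks had similar medians. The 234 sites with a Dox peak within 1000 bp had a median width of 384.5 bp, a median −log10 p of 1.82 and 2.89 in PBS replicates 1 and 2, and summits within 100 bp in 56.0%. For the 359 without one the values were 386 bp, 1.82 and 2.62, and 59.3%. No Dox peak lay within 50 kb of 63 sites (10.6%, 8.39 to 13.4) and within 100 kb of 24. The farthest, chosen after the distances were seen, was chr4:116585429-116585677, with 2.33-fold and 2.81-fold enrichment and the nearest Dox peak 1315891 bp away. After chr12:75273673-75273954, named above, the next was chr3:82899276-82899641, with 2.18-fold and 3.38-fold enrichment and a Dox replicate 2 peak at 415656 bp. The nearest site of all 4 libraries was 1088244 to 6070663 bp from these 3 sites. Such a site holds Dox peaks, so being far from it follows from the choice.

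The nearest site held by all 4 libraries was at a median of 82070 bp from a PBS-pair site, with quartiles of 17995 and 360499 bp. It lay within 1000 bp of 43 sites (7.25%, 5.43 to 9.63), within 10 kb of 124 (20.9%, 17.8 to 24.4) and within 100 kb of 323 (54.5%, 50.4 to 58.4). For the sites of both Dox libraries only, the shares were 6.09% (5.12 to 7.23), 19.7% (18.0 to 21.5) and 56.8% (54.6 to 59.0), with a median of 72906 bp. The intervals of both sets overlap at each of these distances. The median of 82070 bp became 142085 bp in the 330 sites chosen at −log10 p of at least 2 in every list. It became 138964 bp in the 792 sites chosen from equally long lists. The sites of both Dox libraries only were not recomputed there. Sites of all 4 libraries had another of their kind within 1000 bp in 12.1% and at a median of 53342.5 bp.

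Strength varied among the sites at the extremes of this distance. Apart from chr15:85113331-85113631, at 9 bp, the nearest were chr1:227922102-227922535, with 2.16-fold and 3.08-fold enrichment, and chr17:80415360-80415896, with 2.64-fold and 2.21-fold, both 21 bp from a site of all 4 libraries. The farthest were chr3:89664304-89664542 at 7853272 bp, with 2.30-fold and 2.56-fold, and chr1:100435790-100436005 at 6890181 bp, with 2.79-fold and 2.86-fold, followed by chr12:75273673-75273954 at 6070663 bp, one of the leading 10, with 3.62-fold and 3.45-fold. A Dox replicate 1 peak was 258 bp from the site at chr1:100435790-100436005, so distance from a shared site and distance from a Dox peak were not the same.

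**Figure D3:**
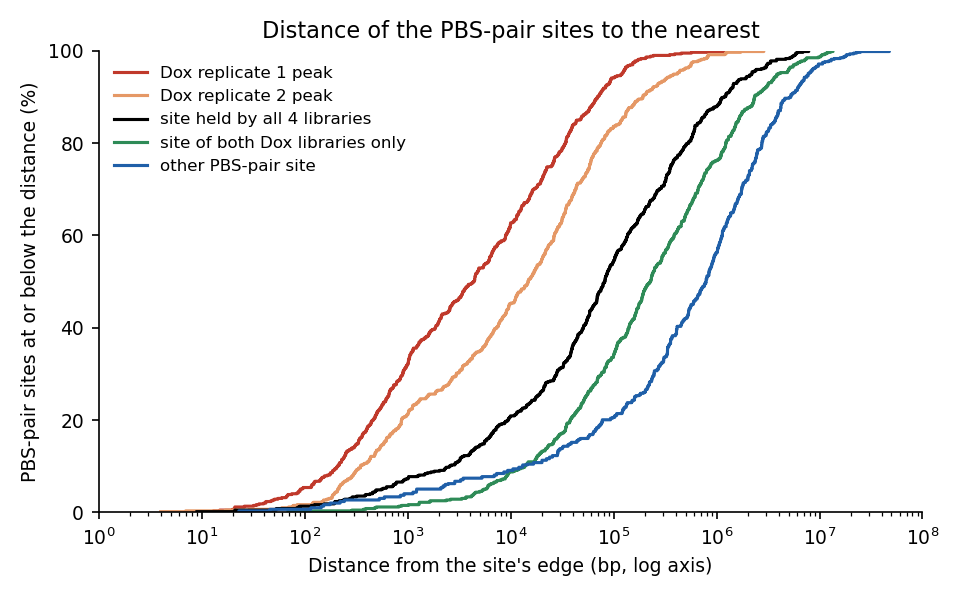
Cumulative share of the 593 PBS-pair sites (vertical, per cent) by the distance from the site's edge (horizontal, bp, log axis) to the nearest peak or site of 5 kinds, 1 line each. The median is 4390 bp to a Dox replicate 1 peak, 14796 bp to a Dox replicate 2 peak, 82070 bp to a site of all 4 libraries, 227553 bp to a site of both Dox libraries only and 792639 bp to another PBS-pair site, kinds that differ in number.

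Sites of other patterns lay near many of the PBS-pair sites. A site of another pattern lay within 200 bp of 128 (21.6%), within 500 bp of 222 (37.4%) and within 1000 bp of 293 (49.4%). These shares were not computed for other sets. In the 50 kb on either side, with the sites' own peaks left out, the mean number of peaks per site was 6.88 from Dox replicate 1 and 3.18 from Dox replicate 2. From PBS replicate 1 it was 2.18 and from PBS replicate 2 it was 4.08. Per 10000 peaks of the list outside the set, these are, in the same order, 1.47, 1.91, 2.03 and 1.82. Around sites of all 4 libraries the same values were 1.85, 2.21, 2.18 and 1.95, and around sites of both Dox libraries only 1.91, 2.15, 2.13 and 1.84. In every list the value was thus lower around the PBS-pair sites than around either other set. The gap was smallest in PBS replicate 2 beside the sites of both Dox libraries only, 1.82 against 1.84. Dox replicate 1 had the lowest value around the PBS-pair sites and around the sites of all 4 libraries, and PBS replicate 2 around the sites of both Dox libraries only. PBS-pair sites were chosen for having no Dox peak, while both other sets hold Dox peaks. The number of listed peaks around them is thus not independent of the choice and is a description. With 2 libraries against 2, a two-sided exact permutation test allows no p below 0.33, and none was made.

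PBS-pair sites were found on all 23 chromosomes with peaks, the autosomes and X. Chromosome 1 held 82, chromosome 6 held 47, chromosome 19 held 44 and chromosome 17 held 39, together 35.8%. Chromosomes 13 and 18 held 5 and 4. The shares mostly followed those of all sites with both PBS libraries, as the plot of chromosome shares shows. The share of the latter lay outside the Wilson interval of the PBS-pair sites on 5 chromosomes, higher for PBS-pair sites on 3 and lower on 2.

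Chromosome 6 held 7.93% (6.01 to 10.4) of the PBS-pair sites and 5.63% of all sites with both PBS libraries. Chromosome 6 held 4.63% of the peaks of Dox replicate 1 and 5.75% of those of Dox replicate 2. It held 5.58% for PBS replicate 1 and 6.18% for PBS replicate 2, so the lowest share was that of Dox replicate 1. On chromosome 5 the share of PBS-pair sites was 5.73% (4.13 to 7.91) against 3.95%, and on chromosome 14 it was 4.38% (3.01 to 6.35) against 2.49%. The shares were lower on chromosome 7, 3.88% (2.60 to 5.75) against 5.93%, and on chromosome 9, 1.69% (0.919 to 3.08) against 3.37%. Seen within a chromosome, 16.7% (11.6 to 23.3) of the sites with both PBS libraries on chromosome 14 had no Dox peak, against 4.74% (2.59 to 8.50) on chromosome 9. Neighbouring sites are not independent, and these chromosomes were picked out of 23 by their values.

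**Figure D4:**
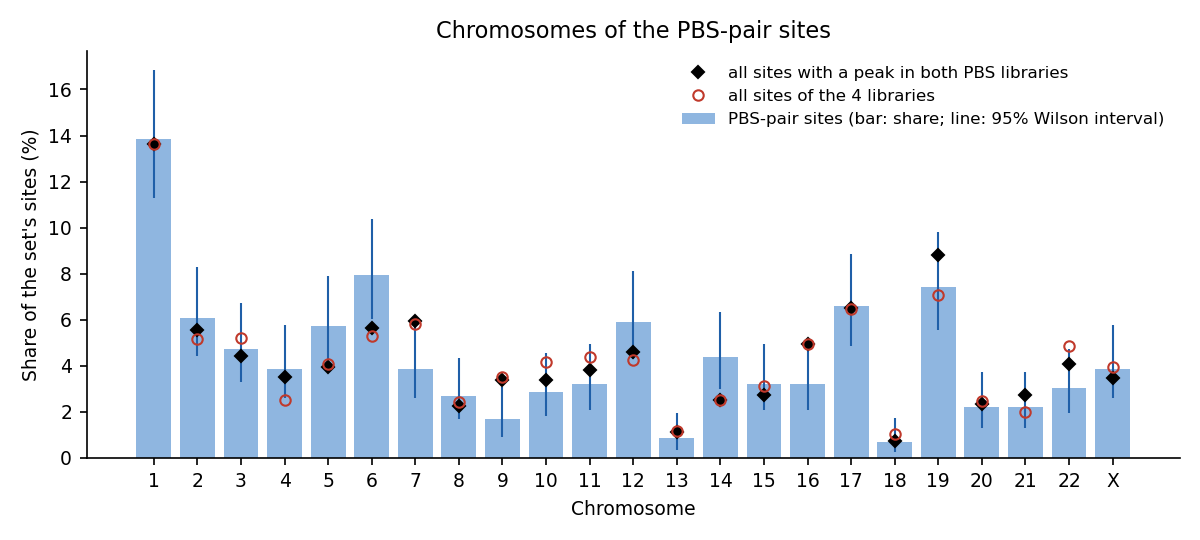
Share of the 593 PBS-pair sites on each chromosome (bars, per cent, with 95% Wilson intervals as lines), beside the share of the 6257 sites with both PBS libraries (black diamonds) and of all 63890 sites (red circles). The diamonds lie outside the interval on chromosomes 5, 6, 7, 9 and 14.

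Along the chromosomes the PBS-pair sites were fewer near the outermost sites than the sites with both PBS libraries were. The outermost site of a chromosome lay within 1 Mb of 15 PBS-pair sites (2.53%, 1.54 to 4.13), against 5.18% of all sites with both PBS libraries and 6.04% of the sites of both Dox libraries only. Within 5 Mb the shares were 15.0% (12.4 to 18.1), 20.9% and 22.4%. The longest stretch without a peak in any list lay within 1 Mb of 7 PBS-pair sites (1.18%, 0.573 to 2.42), against 1.82% of all sites with both PBS libraries. Within 5 Mb the shares were 7.42% (5.57 to 9.81) and 7.99%, so both intervals held the share of the larger set.

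Most PBS-pair sites had no other within 100 kb. Another lay within 10 kb of 54 (9.11%, 7.05 to 11.7), within 100 kb of 122 (20.6%, 17.5 to 24.0) and within 1 Mb of 333 (56.2%), and the median distance to the next was 792639 bp. The share within 100 kb depended on the libraries and the threshold. It was 39.6% without Dox replicate 1, 32.6% without Dox replicate 2, 69.3% without PBS replicate 1 and 45.1% without PBS replicate 2. Each of these was a larger set of sites. The share was 10.9% in the 330 sites chosen at −log10 p of at least 2. Joined at gaps of at most 100 kb, the PBS-pair sites formed 524 runs, of which 471 held 1 site, 42 held 2, 6 held 3 and 5 held 4. The sites of both Dox libraries only had another of their kind within 100 kb in 43.5% of cases, but they are 1986 in number and a larger set has nearer neighbours by that alone. The shortest distance between PBS-pair sites was 23 bp.

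Of the 5 runs with 4 sites, the first spanned chr5:179047344-179159861. A pair of its PBS-pair sites, chr5:179047344-179047638 with 3.20-fold and 2.06-fold enrichment and chr5:179047784-179048141 with 2.72-fold and 2.91-fold, lay to the left of chr5:179050035-179051299, a site of all 4 libraries. Its folds were 5.09 (Dox replicate 1), 5.11 (Dox replicate 2), 6.21 (PBS replicate 1) and 7.85 (PBS replicate 2). The run contained 20 sites, 12 of them with a Dox replicate 1 peak and 7 with a Dox replicate 2 peak.

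The second, chr6:30582138-30685569, also held a stronger site at its left end. The PBS-pair sites chr6:30582138-30582619, with 2.46-fold and 3.20-fold enrichment, and chr6:30585490-30585803, with 2.88-fold and 2.62-fold, stood on either side of chr6:30584433-30585402. That site was held by all 4 libraries, with folds of 5.31 (Dox replicate 1), 5.68 (Dox replicate 2), 5.72 (PBS replicate 1) and 8.74 (PBS replicate 2). A further site, chr6:30582796-30584250, with peaks in both Dox libraries and PBS replicate 2, lay between it and the left PBS-pair site.

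The third, chr16:31195252-31232930, was the most compact, with 4 PBS-pair sites and 21 sites in all over 37679 bp. The 3 sites at its left end had folds of 2.30, 2.78 and 2.12 in PBS replicate 1 and 2.91, 4.11 and 3.10 in PBS replicate 2, and no Dox peak lay among them. Dox peaks began to the right of chr16:31199716-31199991 and were in 12 (replicate 1) and 7 (replicate 2) of the 21 sites of the run. The other runs of 4 were at chr17:46625409-46692695, with 30 sites of which none was held by all 4 libraries, and chr19:12845339-12947474, with 29 sites of which 5 were.

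The 6 runs of 3, described after their values were seen, differed in how many of their sites had a Dox peak. At chr1:35648383-35652976, 6 sites lay within 4594 bp, and none had a peak of either Dox library, while 4 had a PBS replicate 1 peak and 5 a PBS replicate 2 peak. Its PBS-pair sites had folds of 2.16, 2.40 and 2.79 in PBS replicate 1 and 2.49, 4.11 and 2.73 in PBS replicate 2. At chr20:42092346-42143321, 0 of 7 sites had a Dox replicate 2 peak and 2 had a Dox replicate 1 peak, against 4 and 6 in PBS replicates 1 and 2. The 3 PBS-pair sites there had folds of 2.55, 3.22 and 2.51 in PBS replicate 1 and 4.94, 4.65 and 4.29 in PBS replicate 2, all higher in the latter. At chr14:70193738-70241280, 3 of 6 sites had a Dox replicate 1 peak and 2 a Dox replicate 2 peak. Neighbouring PBS-pair sites of 1119 and 850 bp lay to the right of chr14:70233364-70234839, a site of all 4 libraries. Its folds were 6.46 (Dox replicate 1), 4.42 (Dox replicate 2), 3.33 (PBS replicate 1) and 6.42 (PBS replicate 2). At chr2:90371647-90390461, 8 of 16 sites had a Dox replicate 1 peak and 2 a Dox replicate 2 peak. Dox replicate 1 was in most sites of the other runs, 18 of 25 at chr19:1847701-1934433 and 8 of 13 at chr8:37336677-37417341, where Dox replicate 2 was in 4 and 5.

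**Figure D5:**
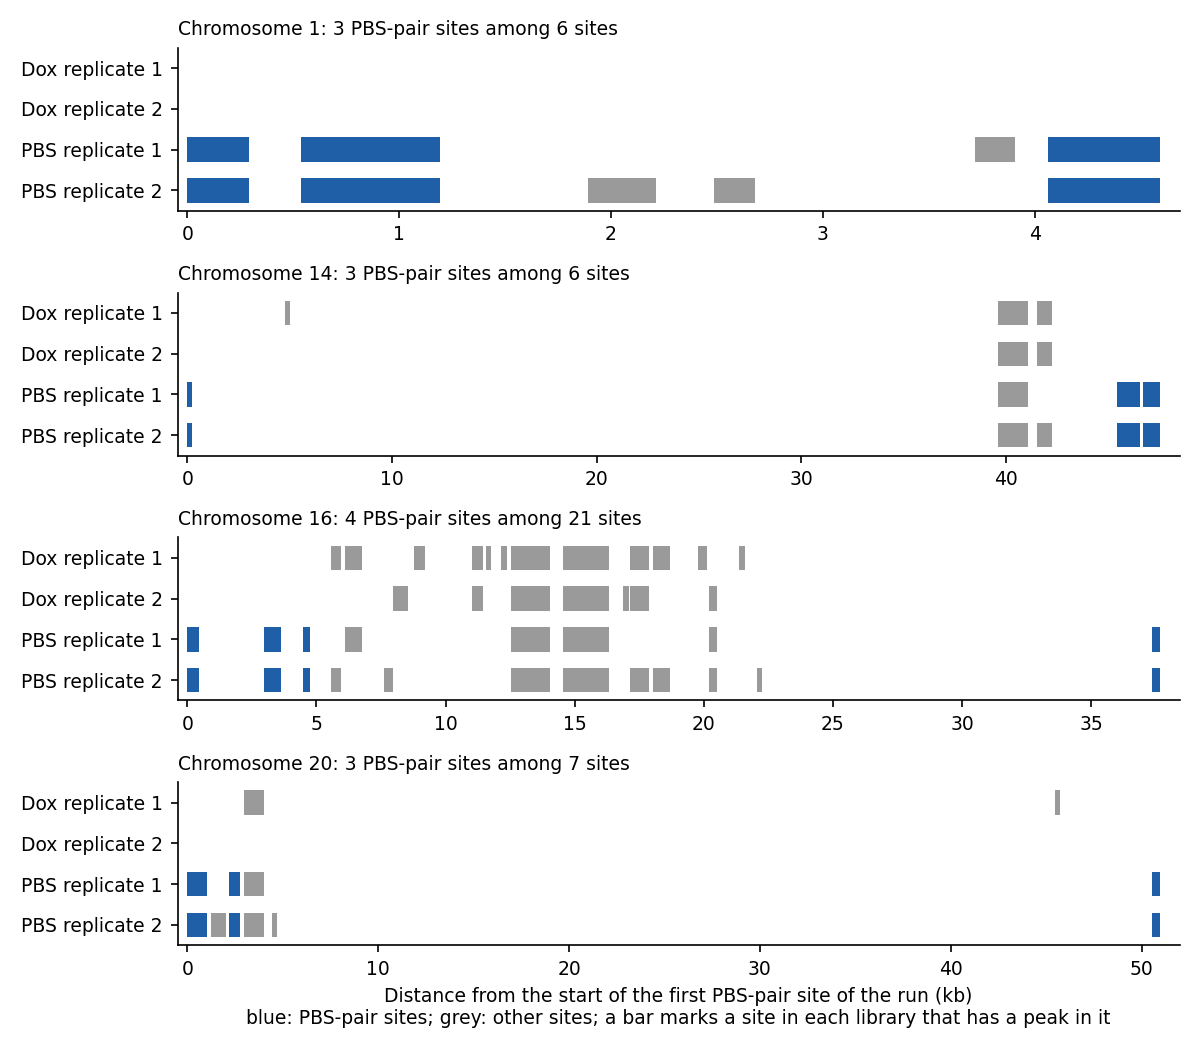
Sites in 4 runs of PBS-pair sites, 1 panel per run and 1 row per library, by distance from the start of the first PBS-pair site (horizontal, kb; sites too narrow to see are drawn at a minimum width). A bar marks a site in each library with a peak in it, blue for PBS-pair sites and grey for others, and the Dox rows are empty on chromosome 1 while on chromosome 16 Dox peaks begin to the right of the first 3 PBS-pair sites.

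Which sites made up the set depended on the libraries and on the threshold. Without Dox replicate 1, the longest list, 2009 sites were held by both PBS libraries and not by the remaining Dox library, and without Dox replicate 2 there were 1054. With 1 list standing for the PBS group there were 9163 without PBS replicate 1 and 2820 without PBS replicate 2. With the 11304 top peaks of each list by p, 792 sites met the rule, of which 306 overlapped a PBS-pair site (38.6% of the 792 and 51.6% of the 593). With −log10 p of at least 2 in every list, 330 sites met it and 219 of these overlapped a PBS-pair site. No test across libraries applies to a set chosen by presence in the same 4 libraries, so the data do not show that p53 binding fell at these sites after doxorubicin.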

How the data were processed

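BWA, MACS2 and build hg19 are named per the submitters' processing notes. No version is given in the sources used here; peak names state p under 0.05. For each ChIP library the authors deposited 1 peak list with each peak's fold enrichment (a ratio over local background), its p-value and q-value as −log10, and its summit as a chromosome coordinate. Per the file headers, the deposited table of PBS peak pairs gives the IDR as a fraction. The Dox pair table was not used. The members and lists were chosen with earlier results of these data known.

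Peaks sharing at least 1 bp were merged into sites, and presence was recorded per library. The strongest peak by p stood for a library in a site. Distances are bases between edges, and coordinates are 1-based. Sites named are those at the extremes of strength, width, summit distance, peak overlap, run size and distance to Dox peaks or to sites of all 4 libraries (10 for strength, otherwise 1 to 3), plus every site where each PBS peak had q of 0.05 or less. Sites that passed q in 1 PBS library, runs beyond the first 3 and the sites farthest from a Dox peak were named after their values were seen. The merging and distance steps were tested on simulated data. Alternatives were other merging distances and overlaps, p and q minimums, equal list lengths, and leaving out each library. Read depth is not given, and no count was tested. Tables were handled in pandas 2.3.3 and numpy 2.4.6 under Python 3.11.15, intervals came from scipy 1.17.1, and plots from matplotlib 3.10.9.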

Additional observations from a re-analysis of the deposited data

How the results depend on the processing

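No paired analysis was possible because the result comes from no test. Absence from a list depends on that list's length and threshold, and read depth is unknown, so a missing Dox peak sets no limit on binding. The number of sites, 593 as reported, was within 1.5 times of that with peaks merged within 100 or 500 bp, with an overlap of at least 100 bp counted on PBS replicate 1 peaks in place of merged sites, and with equally long lists. The overlap setting thus changed the counted unit too, here and below. The number became 330 with a −log10 p of at least 2 and 9 with a −log10 q of at least 1.3, and ran from 1054 to 9163 when 1 library was left out. The highest value came without PBS replicate 1 (2820 without PBS replicate 2), where 1 list stands for the group. Each of these settings chose its own set of sites, and its values below describe that set. Of the 9 sites at the q minimum, only 1 overlapped a PBS-pair site, so they are not the strongest PBS-pair sites.

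The median width of 385 bp became 424 bp with peaks merged within 500 bp, 410.5 bp with the 100 bp overlap on PBS replicate 1 peaks, 403.5 bp at −log10 p of at least 2, 608 bp at −log10 q of at least 1.3 (9 sites) and 434 bp at equal list length. It ran from 235 to 418 bp with a library left out. The median distance to a site of all 4 libraries became 142085 bp at the p minimum, 1065060 bp at the q minimum and 138964 bp at equal list length.

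The share with a Dox peak within 1000 bp, 39.5%, became 34.7% and 13.2% with merging within 100 and 500 bp, which joins such peaks by construction, 58.1% with the 100 bp overlap on PBS replicate 1 peaks, 33.0% and 11.1% at the p and q minimums and 22.6% at equal list length. It ran from 22.3% to 39.1% with a library left out, and was 12.6% within 200 bp and 69.0% within 10000 bp. The share with another PBS-pair site within 100000 bp, 20.6%, became 12.3% with merging within 500 bp, 24.7% with that overlap and unit, 10.9% and 0% at the p and q minimums and 25.1% at equal list length. It ran from 32.6% to 69.3% with a library left out, and was 9.11% within 10000 bp and 56.2% within 1000000 bp. The median summit distance, 78 bp, became 102 bp with merging within 500 bp, 63 bp at the p minimum and 22 bp at the q minimum. Where no construction is named, the cause was not tested.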
